A study of Homo sapiens with 4 samples.

Results

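Sterol synthesis, uptake and control by the sterol regulatory element-binding proteins (SREBPs) were followed through 28 genes. They were chosen by name from a table of 57905 gene identifiers, with earlier results of these data known. The genes fall into 7 enzymes that lead from acetyl-CoA to farnesyl diphosphate, 11 that lead from there through squalene to cholesterol, 5 regulators of SREBP and 5 genes of sterol transport and lipoprotein receptor turnover. The assay was poly(A) RNA sequencing, and the labels give the cells as MG63, an established line grown from a human osteosarcoma. Of 4 libraries, 2 came from cells transfected with an siRNA against KLF11 and 2 from cells transfected with a control siRNA, all taken 48 hours after transfection. Levels are FPKM, fragments normalised for gene length and for the size of the library, so levels can be set side by side between genes, and the read depth behind them is unknown. Nothing in the labels ties the replicates to separate cultures, so every p-value here reflects the spread of 4 libraries, and that spread may be technical. The smallest two-sided p of an exact permutation test at this size is 0.333, so none was run.

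Cells make cholesterol from acetyl-CoA through mevalonate, isoprenoid diphosphates, squalene and lanosterol. When sterols in the endoplasmic reticulum are low, SCAP escorts the SREBP precursors to the Golgi, where they are cut to release transcription factors that switch on the genes of the pathway. When sterols are plentiful, INSIG proteins hold SCAP back, and oxysterols activate the liver X receptors (LXRs), which act against uptake and for export.

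KLF11, a Krüppel-like zinc finger factor and the target of the siRNA, was at 5.49 and 6.74 FPKM with KLF11 siRNA against 12.3 and 12.4 FPKM with control siRNA. Cell markers went in large part against the label MG63, and the identity of the cells is not settled here. The collagen gene COL1A2 was abundant, at 136 and 115 FPKM with KLF11 siRNA and 133 and 126 FPKM with control siRNA. SPARC, VIM and ALPL were abundant as well. COL1A1 was at 11.9 and 15.8 FPKM with KLF11 siRNA and 23.3 and 22.3 FPKM with control siRNA. COL3A1 was at 1.40 and 0.95 FPKM with KLF11 siRNA and 0.01 and 0 FPKM with control siRNA. With control siRNA, PDGFRB was at 0.61 and 0.32 FPKM and TWIST1 at 1.08 and 0.79 FPKM. The osteoblast factor RUNX2 stood at 0.60 and 0.65 FPKM with KLF11 siRNA and at 0.03 and 0.02 FPKM with control siRNA. The pluripotency factor POU5F1 and the early endoderm gene CER1 were abundant in all 4 libraries. POU5F1 was at 1364 and 1068 FPKM with KLF11 siRNA and 186 and 177 FPKM with control siRNA. CER1 was at 958 and 2574 FPKM with KLF11 siRNA and 4430 and 4406 FPKM with control siRNA. With control siRNA, the endoderm factors SOX17 and GATA4 were at 133 and 131 FPKM and at 108 and 104 FPKM. The epithelial marker EPCAM was at 345.85 and 351.5 FPKM there. Of 8 early endoderm markers 1 rose and 5 fell, and their summed level was 1303 and 3026 FPKM with KLF11 siRNA against 5097 and 5060 FPKM with control siRNA. CER1, which did not pass (adjusted p = 0.0543), made up most of that sum, and without it the other 7 summed to 345 and 452 FPKM with KLF11 siRNA against 667 and 654 FPKM with control siRNA. The sum of 6 pluripotency markers, of which 4 rose and 1 fell, was 2644 and 2209 FPKM with KLF11 siRNA against 1320 and 1330 FPKM with control siRNA. All 5 epithelial markers fell, to a sum of 737 and 1006 FPKM with KLF11 siRNA against 2114 and 1942 FPKM with control siRNA. Of 8 tested mesenchymal and osteoblast markers 4 rose and 1 fell, and the sums over all 10 listed were 1865 and 1864 FPKM with KLF11 siRNA against 1070 and 1015 FPKM with control siRNA. No leukocyte marker of 5 passed the filter, and the summed level of the 5 was at most 0.66 FPKM. Many of these cell markers changed in the same comparison as the sterol genes, some up and some down. Their part in the results was not tested. In such bulk libraries, fewer cells of a type and less RNA per cell cannot be told apart.

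With KLF11 siRNA, the genes of sterol synthesis were higher at nearly every step. Of the 18 synthesis enzymes, 15 rose, 1 fell and 2 did not pass (limma, adjusted p under 0.05). In the whole table of 15320 tested genes, 13.5% were called higher and 21.7% lower. Because the 28 genes were chosen with earlier results known, such contrasts with the whole table are descriptions and were not tested. The median log2 change of the 18 enzymes was 0.59, against -0.11 for all tested genes. Their summed level was 1983 and 1833 FPKM with KLF11 siRNA against 1187 and 1183 FPKM with control siRNA, or 0.336% and 0.303% of all FPKM against 0.205% and 0.203%. All 28 genes passed the filter of a mean FPKM of 1, and over the 28 there were 17 rises and 4 falls. Median-of-ratios scaling, which moved the median of all tested genes to -0.01, gave 2728 higher and 2664 lower genes in the whole table against 2071 and 3329 without it, and 19 rises and 3 falls among the 28. Values of the 2 groups were fully separate for 27 of the 28 genes, against 73.4% of all tested genes. They lay higher with KLF11 siRNA for 20 of the 28, against 28.9%, and lower for 7, against 44.5%.

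**Figure D1:**
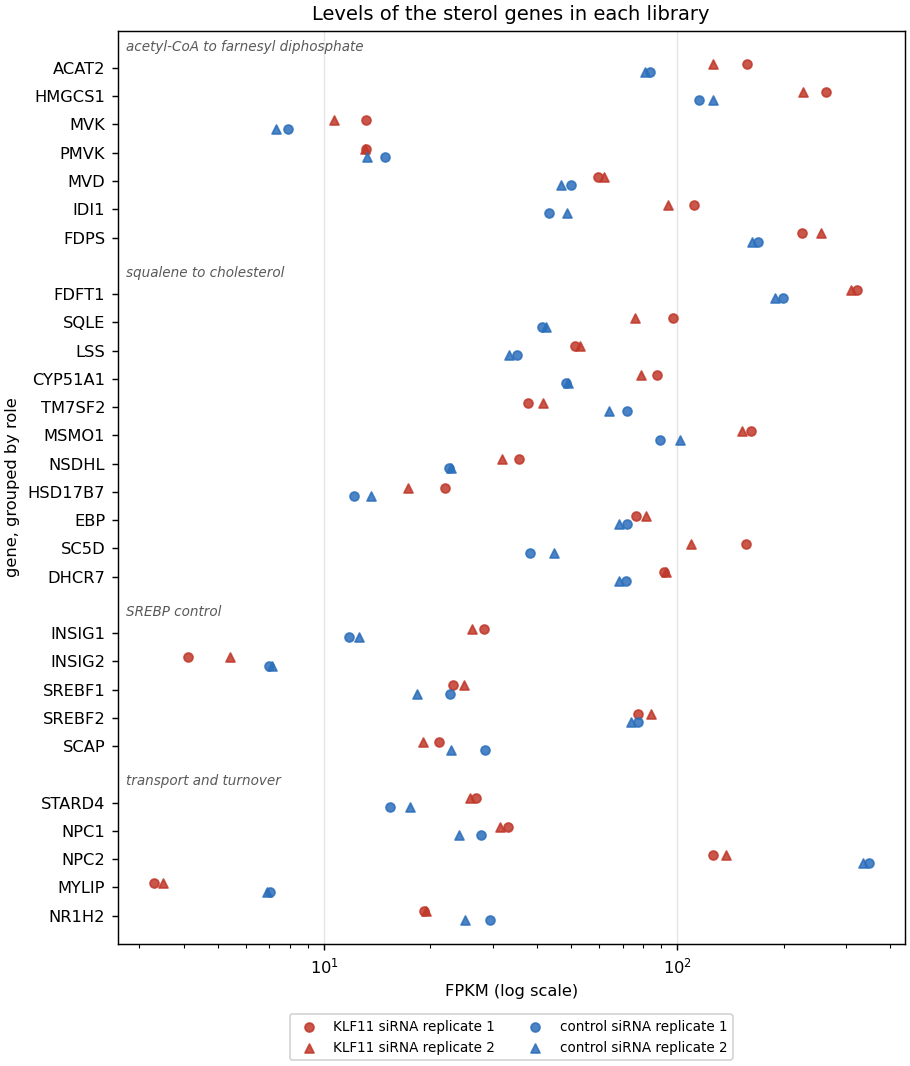
FPKM (log scale) of the 28 genes in each library, grouped by role, with KLF11 siRNA in red and control siRNA in blue. Synthesis enzymes lie to the right in red except TM7SF2 and PMVK (whose sign turns with median-of-ratios scaling), whereas NPC2, MYLIP and NR1H2 lie to the left in red.

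Among the enzymes that make farnesyl diphosphate, 6 of 7 rose and 1 did not pass. ACAT2, the cytosolic thiolase that joins acetyl-CoA units, was at 158 and 126 FPKM with KLF11 siRNA against 83.6 and 81.0 FPKM with control siRNA (log2 change 0.77, SE 0.126, adjusted p = 0.0114). HMGCS1, the synthase of hydroxymethylglutaryl-CoA, was at 264 and 226 FPKM with KLF11 siRNA against 115 and 126 FPKM with control siRNA (log2 change 1.01, SE 0.110, adjusted p = 0.00502). Both KLF11 siRNA libraries thus stood above both control libraries, and replicate 1 stood highest for each gene.

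MVK, mevalonate kinase, was the least abundant of the 6 that rose, at 13.1 and 10.7 FPKM with KLF11 siRNA against 7.88 and 7.29 FPKM with control siRNA (adjusted p = 0.0313). PMVK, the next kinase in line, did not follow it, with 13.1 and 13.1 FPKM with KLF11 siRNA against 14.9 and 13.2 FPKM with control siRNA (log2 change -0.09, 95% interval -0.38 to 0.20, adjusted p = 0.557). With median-of-ratios scaling its log2 change was 0.02. MVD, the decarboxylase after PMVK, was at 59.8 and 61.9 FPKM with KLF11 siRNA against 50.1 and 46.7 FPKM with control siRNA (log2 change 0.32, adjusted p = 0.0381). The 3 consecutive steps from mevalonate to isopentenyl diphosphate thus gave a rise, no call and a smaller rise. The difference between these steps was not tested.

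IDI1, the isopentenyl diphosphate isomerase, showed the largest fold of the 7 at 2.23, with 111 and 94.1 FPKM with KLF11 siRNA against 43.3 and 48.7 FPKM with control siRNA (log2 change 1.14, SE 0.119, adjusted p = 0.0048). FDPS, the farnesyl diphosphate synthase, was at 225 and 255 FPKM with KLF11 siRNA against 169 and 163 FPKM with control siRNA (1.45-fold, adjusted p = 0.0146). For FDPS the higher KLF11 siRNA library was replicate 2, unlike ACAT2, HMGCS1, MVK and IDI1.

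Beyond farnesyl diphosphate, 9 of 11 enzymes rose, 1 fell and 1 did not pass. FDFT1, squalene synthase, was the most abundant of the 28 genes with KLF11 siRNA, at 322 and 311 FPKM against 199 and 189 FPKM with control siRNA (1.63-fold, adjusted p = 0.00559). SQLE, squalene epoxidase, was at 97.0 and 75.8 FPKM with KLF11 siRNA against 41.3 and 42.3 FPKM with control siRNA (2.07-fold, adjusted p = 0.00701). LSS, which closes the epoxide to lanosterol, was at 51.4 and 52.9 FPKM with KLF11 siRNA against 35.2 and 33.5 FPKM with control siRNA (1.52-fold, adjusted p = 0.00849). In these 3 genes the control libraries differed from each other by far less than the groups did.

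CYP51A1, lanosterol 14-demethylase, was at 87.6 and 79.1 FPKM with KLF11 siRNA against 48.5 and 49.01 FPKM with control siRNA (1.71-fold, adjusted p = 0.0057). The step after it gave the only fall among the enzymes. TM7SF2, the sterol C14 reductase, was at 37.7 and 41.7 FPKM with KLF11 siRNA against 72.2 and 63.9 FPKM with control siRNA (0.583-fold, log2 change -0.76, SE 0.106, adjusted p = 0.00788). LBR, a protein of the inner nuclear membrane that carries the same reductase activity, is not among the 28 genes and was looked up after the values of TM7SF2 were seen. It rose, at 109 and 129 FPKM with KLF11 siRNA against 58.0 and 67.6 FPKM with control siRNA (1.90-fold, adjusted p = 0.00783).

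The demethylation complex at C4 rose in all its 3 members. MSMO1, the methyl sterol oxidase, was at 161 and 153 FPKM with KLF11 siRNA against 89.4 and 102 FPKM with control siRNA (1.64-fold, adjusted p = 0.0078). NSDHL, the dehydrogenase, was at 35.6 and 32.0 FPKM with KLF11 siRNA against 22.5 and 22.8 FPKM with control siRNA (1.49-fold, adjusted p = 0.0139). HSD17B7, the ketoreductase, was at 21.9 and 17.3 FPKM with KLF11 siRNA against 12.2 and 13.6 FPKM with control siRNA (1.52-fold, adjusted p = 0.0367). The ratio of MSMO1 to TM7SF2 within a library was 4.29 and 3.66 with KLF11 siRNA and 1.24 and 1.59 with control siRNA. This ratio restates the rise of MSMO1 and the fall of TM7SF2.

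Of the late enzymes, SC5D, the sterol C5 desaturase, rose most of all 28 genes. SC5D was at 157 and 109 FPKM with KLF11 siRNA against 38.2 and 44.7 FPKM with control siRNA (3.21-fold, log2 change 1.64, SE 0.190, adjusted p = 0.00553). It stood sixth in level among the 28 genes with KLF11 siRNA and fifteenth with control siRNA, and its KLF11 siRNA libraries had the largest relative spread of the 28, with an SD of 25.2% of the mean. The enzymes on either side of it had smaller fitted changes. EBP, the isomerase before it, was at 76.5 and 81.7 FPKM with KLF11 siRNA against 72.2 and 68.1 FPKM with control siRNA (log2 change 0.17, 95% interval -0.05 to 0.39, adjusted p = 0.180). DHCR7, the reductase after it, was at 91.7 and 93.1 FPKM with KLF11 siRNA against 71.7 and 68.4 FPKM with control siRNA (1.32-fold, adjusted p = 0.0189). The ratio of SC5D to DHCR7 was 1.71 and 1.17 with KLF11 siRNA and 0.533 and 0.653 with control siRNA.

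**Figure D2:**
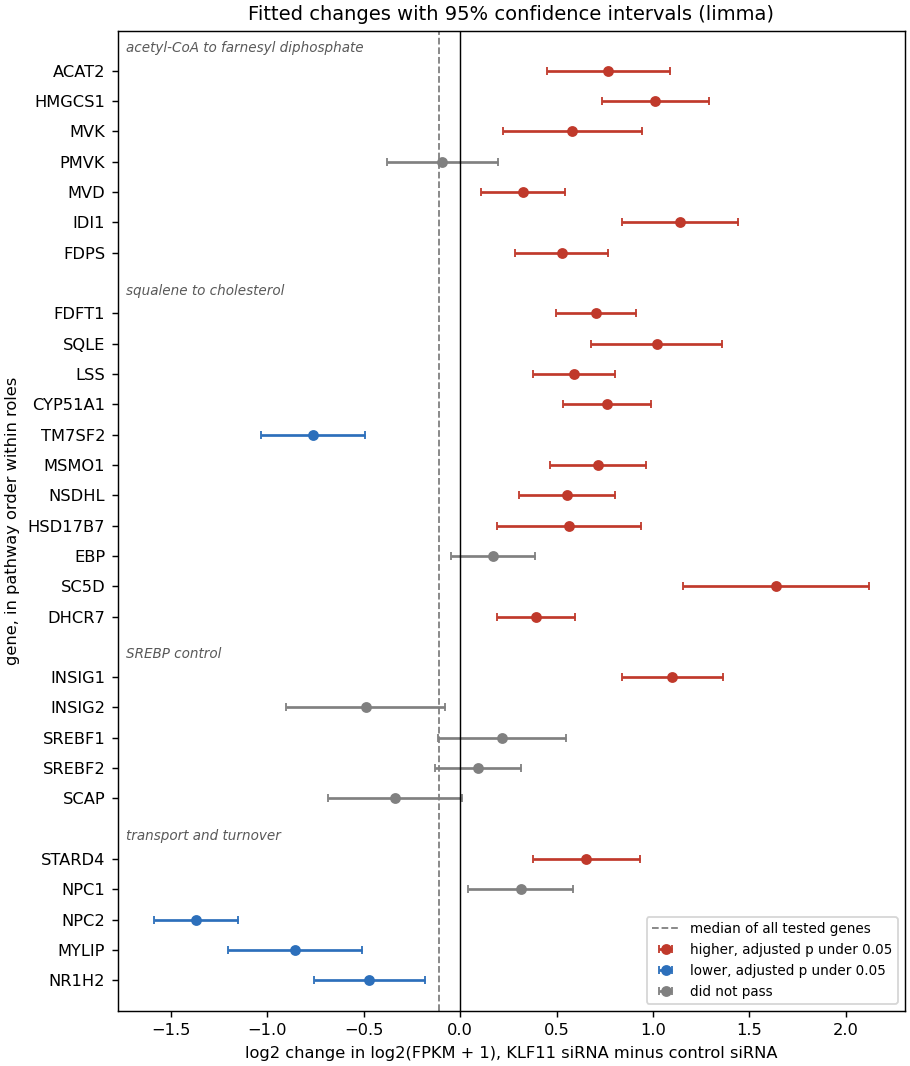
Fitted log2 changes (x axis, KLF11 siRNA minus control siRNA, on log2(FPKM + 1)) of the 28 genes with 95% confidence intervals from limma. The dashed line marks the median of all tested genes at -0.11, and SC5D (1.64) and NPC2 (-1.37) lie at the ends.

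Because the synthesis genes moved together, the 250 bases before their transcription starts were searched for the letters that SREBPs and their partners are known to use. RefSeq windows of build GRCh38.p14 were found for 25 of the 28 genes, and not for ACAT2, FDFT1 and SQLE, which all rose. The motifs, read on both strands, were TCACNCCA and the longer TCACNCCAC, which contains it, for the sterol regulatory element; CCAAT, which NF-Y binds; and GGGCGG and CACCC, letters bound by SP and Krüppel-like factors. The windows of SC5D, INSIG1, MSMO1 and FDPS are shown for the genes that rose and those of TM7SF2 and NPC2 for the genes that fell, 5′ to 3′ on the gene's strand, with capitals marking TCACNCCA, CCAAT and GGGCGG or their reverse complements. They lie at chr11:121292521-121292770 (+) for SC5D, chr7:155297628-155297877 (+) for INSIG1, chr4:165327419-165327668 (+) for MSMO1, chr1:155308616-155308865 (+) for FDPS, chr11:65111622-65111871 (+) for TM7SF2 and chr14:74493513-74493762 (-) for NPC2.
SC5D: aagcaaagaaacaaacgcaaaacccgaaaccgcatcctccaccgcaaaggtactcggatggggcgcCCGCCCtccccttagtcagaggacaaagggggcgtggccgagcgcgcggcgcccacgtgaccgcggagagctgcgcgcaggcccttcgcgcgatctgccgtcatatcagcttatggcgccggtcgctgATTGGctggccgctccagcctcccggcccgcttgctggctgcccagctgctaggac
INSIG1: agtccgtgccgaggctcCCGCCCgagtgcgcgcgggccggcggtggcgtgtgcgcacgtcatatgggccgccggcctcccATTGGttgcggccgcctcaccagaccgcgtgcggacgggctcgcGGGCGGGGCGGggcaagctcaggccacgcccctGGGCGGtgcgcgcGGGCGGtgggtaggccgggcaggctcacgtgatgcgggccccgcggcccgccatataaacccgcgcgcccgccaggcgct
MSMO1: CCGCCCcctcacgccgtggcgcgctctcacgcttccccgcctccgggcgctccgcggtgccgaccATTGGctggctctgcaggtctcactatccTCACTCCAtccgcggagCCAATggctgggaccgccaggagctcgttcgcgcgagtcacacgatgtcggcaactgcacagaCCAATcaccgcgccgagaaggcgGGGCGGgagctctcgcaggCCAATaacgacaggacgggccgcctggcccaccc
FDPS: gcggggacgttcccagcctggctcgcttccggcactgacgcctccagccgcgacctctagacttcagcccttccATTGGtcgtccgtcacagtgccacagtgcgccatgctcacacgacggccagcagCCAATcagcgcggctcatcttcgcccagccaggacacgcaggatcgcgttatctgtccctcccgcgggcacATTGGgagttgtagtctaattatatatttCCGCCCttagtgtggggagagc
TM7SF2: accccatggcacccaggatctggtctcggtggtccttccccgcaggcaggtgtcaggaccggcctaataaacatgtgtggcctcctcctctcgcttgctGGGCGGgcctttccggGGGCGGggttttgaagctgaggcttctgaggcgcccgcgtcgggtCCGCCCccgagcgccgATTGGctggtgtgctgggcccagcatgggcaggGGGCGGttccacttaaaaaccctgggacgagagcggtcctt
NPC2: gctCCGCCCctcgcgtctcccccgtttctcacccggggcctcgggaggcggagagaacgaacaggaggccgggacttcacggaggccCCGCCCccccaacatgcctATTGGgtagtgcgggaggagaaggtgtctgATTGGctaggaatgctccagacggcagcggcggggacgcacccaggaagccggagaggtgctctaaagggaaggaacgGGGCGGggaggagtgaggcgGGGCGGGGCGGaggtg

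The CCAAT letters were found in at least 1 window of 18 of the 25 genes. Among tested genes with a window, 41.4% had them, and 32.0% of all 35116 windows did. They were present in 13 of the 14 genes that rose and had a window, the exception being CYP51A1, in 3 of the 4 that fell and in 2 of the 7 that did not pass. MVK and NSDHL held 5 matches each and MSMO1 held 4. Over all tested genes the shares hardly differed by call, at 42.7% of those higher, 39.3% of those lower and 41.9% of those that did not pass. The short sterol element letters were found in 3 of the 25 genes, namely MSMO1, MVK and SREBF2, against 3.94% of tested genes, and the long form in SREBF2, against 1.20%. GGGCGG was found in 24 of the 25, against 75.8%, and CACCC in 18 of the 25, against 65.8%. CACCC can overlap the sterol element letters. The motifs were chosen with the gene changes known, no test was run, and a match is a description of letters and not a site. Only exact matches within 250 bases were counted, so a gene without a match may still hold a site.

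SREBP control genes split by member, with 1 of 5 rising and 4 not passing. INSIG1, which retains SCAP in the endoplasmic reticulum and is itself an SREBP target, was at 28.3 and 26.3 FPKM with KLF11 siRNA against 11.8 and 12.6 FPKM with control siRNA (2.24-fold, log2 change 1.10, SE 0.103, adjusted p = 0.00392). INSIG2, its close relative, was at 4.13 and 5.41 FPKM with KLF11 siRNA against 7 and 7.10 FPKM with control siRNA (log2 change -0.49, 95% interval -0.90 to -0.08, adjusted p = 0.0684). Neither gene's values overlapped between the groups, and the KLF11 siRNA libraries lay above the controls for INSIG1 and below them for INSIG2. The ratio of INSIG1 to INSIG2 was 6.85 and 4.85 with KLF11 siRNA and 1.68 and 1.77 with control siRNA. INSIG2 passed without KLF11 siRNA replicate 2 (log2 change -0.65, adjusted p = 0.0268), while its adjusted p ran from 0.0268 to 0.15 over the alternatives that kept both control libraries.

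The messages of the SREBPs themselves and of their escort gave no call. SREBF2, which encodes the SREBP that mainly drives sterol synthesis, was at 77.2 and 84.2 FPKM with KLF11 siRNA against 77.3 and 73.9 FPKM with control siRNA (log2 change 0.09, 95% interval -0.13 to 0.32, adjusted p = 0.449). It was the only one of the 28 genes whose groups overlapped. SREBF1, whose SREBP-1c form mainly drives fatty acid synthesis, was at 23.1 and 24.8 FPKM with KLF11 siRNA against 22.7 and 18.4 FPKM with control siRNA (log2 change 0.22, 95% interval -0.11 to 0.55, adjusted p = 0.243). SCAP was at 21.1 and 19.01 FPKM with KLF11 siRNA against 28.5 and 22.9 FPKM with control siRNA (log2 change -0.34, 95% interval -0.68 to 0.01, adjusted p = 0.113). The ratio of SREBF2 to SREBF1 was 3.34 and 3.39 with KLF11 siRNA and 3.40 and 4.02 with control siRNA. FPKM per gene does not separate the SREBF1 isoforms, and cleavage of SREBP was not measured.

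**Figure D3:**
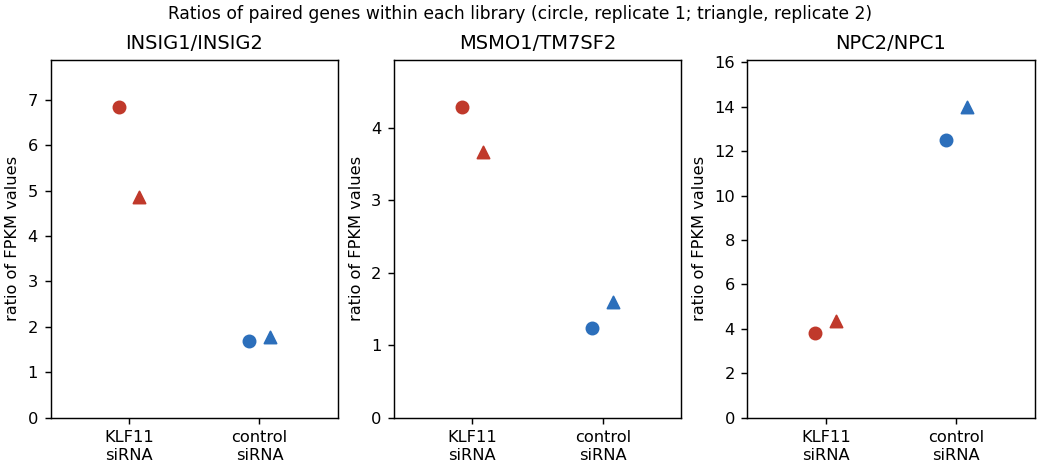
Ratios of FPKM values of INSIG1 to INSIG2, MSMO1 to TM7SF2 and NPC2 to NPC1 within each library, KLF11 siRNA left and control siRNA right, circles for replicate 1 and triangles for replicate 2. The INSIG1 to INSIG2 ratio is 6.85 and 4.85 with KLF11 siRNA against 1.68 and 1.77, and the NPC2 to NPC1 ratio is 3.80 and 4.35 against 12.5 and 14.0. Each ratio restates the levels of its genes.

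Of the transport and turnover genes 1 rose, 3 fell and 1 did not pass. NPC2, the soluble protein that carries cholesterol inside the lysosome, was at 126 and 137 FPKM with KLF11 siRNA against 348 and 336 FPKM with control siRNA (0.385-fold, log2 change -1.37, SE 0.0865, adjusted p = 0.00238). NPC2 was the most abundant of the 28 genes with control siRNA and ranked seventh with KLF11 siRNA. NPC1, the membrane protein to which NPC2 hands its cholesterol, was at 33.2 and 31.6 FPKM with KLF11 siRNA against 27.8 and 24.1 FPKM with control siRNA (log2 change 0.31, 95% interval 0.04 to 0.59, adjusted p = 0.0752). The NPC2 to NPC1 ratio was 3.80 and 4.35 with KLF11 siRNA and 12.5 and 14.0 with control siRNA.

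STARD4, a cytosolic sterol carrier and known SREBP target, was at 26.9 and 25.8 FPKM with KLF11 siRNA against 15.3 and 17.5 FPKM with control siRNA (1.61-fold, adjusted p = 0.012). MYLIP, a ubiquitin ligase that marks lipoprotein receptors for breakdown and is switched on by LXRs, was at 3.29 and 3.49 FPKM with KLF11 siRNA against 7.03 and 6.87 FPKM with control siRNA (0.488-fold, log2 change -0.86, SE 0.137, adjusted p = 0.0108). NR1H2, which encodes LXR-beta, was at 19.1 and 19.5 FPKM with KLF11 siRNA against 29.4 and 25.1 FPKM with control siRNA (0.709-fold, adjusted p = 0.0297). NPC2, MYLIP and NR1H2 were thus each below both control libraries in both KLF11 siRNA libraries. With median-of-ratios scaling NR1H2 missed the threshold (adjusted p = 0.051), and its log2 change there was -0.36.

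**Figure D4:**
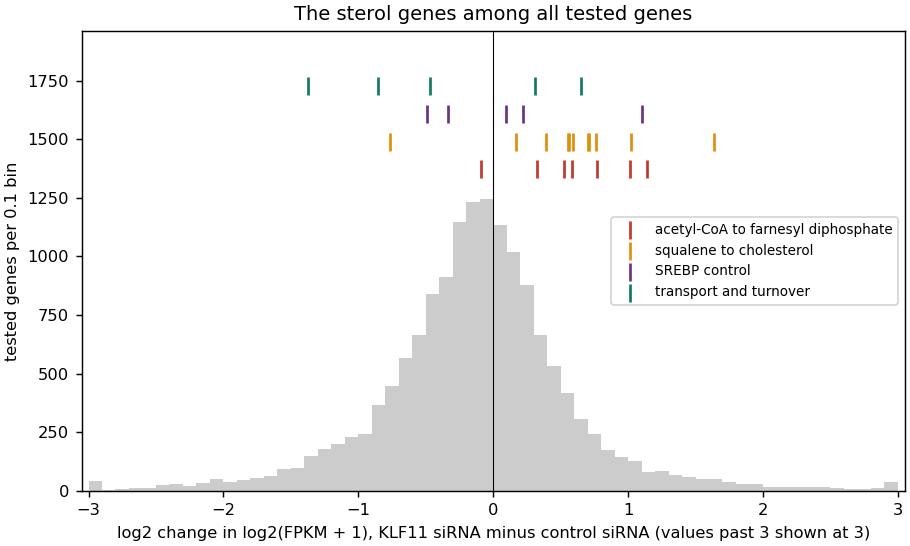
Log2 changes (x axis) of all 15320 tested genes as a histogram, values past 3 in either direction drawn at 3, with the 28 genes as ticks above it, coloured by role. The synthesis enzymes lie right of 0 except PMVK (-0.09, or 0.02 with median-of-ratios scaling) and TM7SF2 (-0.76).

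KLF11 siRNA replicate 1 stood farther from the control mean than replicate 2 in 13 of the 17 genes that rose and in 4 of the 4 that fell. Over all called genes it did so in 79.1%. The exceptions among the rises were FDPS, MVD, LSS and DHCR7. Replicate 1 also had the lower KLF11 level and the lower summed level of early endoderm markers. These orders rest on 2 libraries, and a link between them was not tested. The calls of MVD and NR1H2 were lost without either KLF11 siRNA library, and those of MVK and HSD17B7 without replicate 1. All 21 calls rest on both control libraries. Without control siRNA replicate 1 or without replicate 2, 0 of the 28 genes and 0 of all tested genes passed in limma, while 20 of the 28 had an unadjusted p under 0.05 in each of these fits. The log2 change of SC5D was 1.53 or 1.75 and that of NPC2 -1.34 or -1.40 in those fits, and the 28 genes kept their signs there.

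Genes of neighbouring pathways, in 5 lists with 69 tested members, gave calls at about the rate of the whole table. Of the 69 genes 10 rose and 14 fell, or 14.5% and 20.3%, against 13.5% and 21.7% of all tested genes, with a median log2 change of -0.02. The counts by list were 4 higher and 2 lower of 16 in the isoprenoid branches, 1 and 3 of 13 in SREBP processing and degradation at the endoplasmic reticulum, 2 and 3 of 18 in sterol transport, storage and uptake, 0 and 3 of 7 among LXR partners and oxysterol enzymes, and 3 and 3 of 15 among lipogenic SREBP targets. The difference between these lists and the synthesis enzymes was not tested.

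**Figure D5:**
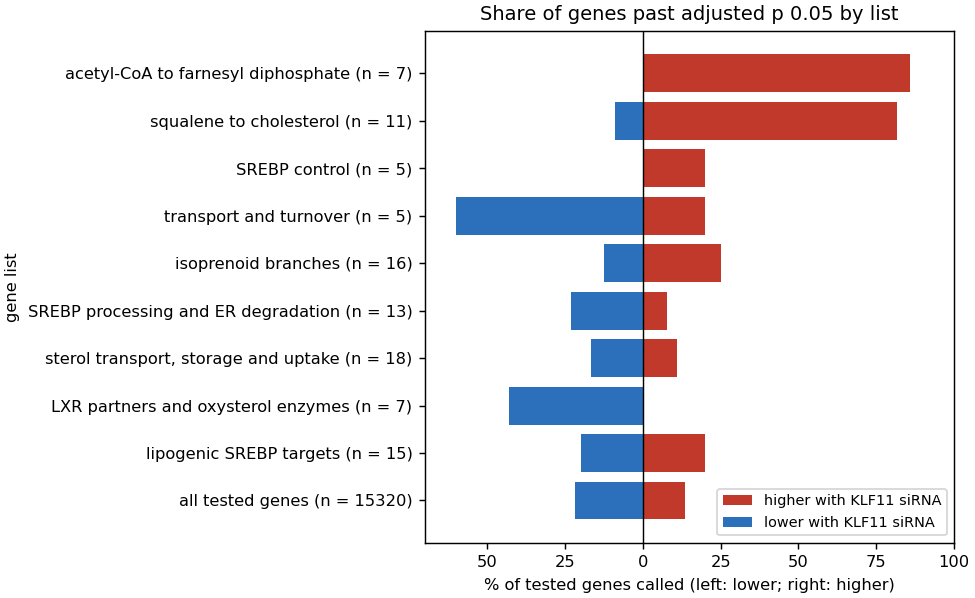
Share of tested genes called higher (red, to the right) or lower (blue, to the left) with KLF11 siRNA in each list, with all tested genes at the bottom. The enzyme lists stand out to the right with 6 of 7 and 9 of 11 genes higher, against 13.5% of all tested genes.

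In the isoprenoid branches, PDSS1, which builds the ubiquinone side chain, was at 11.6 and 6.83 FPKM with KLF11 siRNA against 3.27 and 3.02 FPKM with control siRNA (2.92-fold, adjusted p = 0.0181), and COQ2, which attaches it, rose 1.85-fold (adjusted p = 0.0132). GGPS1, which makes geranylgeranyl diphosphate, was at 25.7 and 26.0 FPKM with KLF11 siRNA against 37.8 and 40.2 FPKM with control siRNA (0.663-fold, adjusted p = 0.01). FNTA, a subunit shared by protein prenyltransferases, was 0.743-fold (adjusted p = 0.0201). The other 2 genes called in this list, named because the count is small, rose: ZMPSTE24, a protease of prenylated proteins, 1.46-fold (adjusted p = 0.0322) and ICMT, which methylates them, 1.31-fold (adjusted p = 0.0311).

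Around SREBP processing, PAQR3, which holds SCAP and SREBP at the Golgi, was at 19.7 and 17.7 FPKM with KLF11 siRNA against 8.65 and 8.17 FPKM with control siRNA (2.22-fold, adjusted p = 0.00503). C12orf49, a Golgi protein needed for SREBP processing, was at 20.1 and 22.5 FPKM with KLF11 siRNA against 49.9 and 42.8 FPKM with control siRNA (0.458-fold, adjusted p = 0.005). RNF145, a ubiquitin ligase of the endoplasmic reticulum membrane, was 0.758-fold (adjusted p = 0.0409).

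Of the 7 tested LXR partners and oxysterol enzymes 0 rose and 3 fell in limma, against 13.5% and 21.7% of all tested genes, counts too small to set this list apart. All 7 fitted changes were below 0, as were 59.0% of those of all tested genes. NR1H3, which encodes LXR-alpha, was at 4.66 and 7.26 FPKM with KLF11 siRNA against 14.4 and 13.3 FPKM with control siRNA (0.431-fold, adjusted p = 0.0151), and RXRA, its partner receptor, was 0.635-fold (adjusted p = 0.0134). CYP27A1, which makes 27-hydroxycholesterol, was at 6.30 and 9.13 FPKM with KLF11 siRNA against 23.4 and 23.1 FPKM with control siRNA (0.332-fold, adjusted p = 0.00574). RXRG did not pass, at 0.93 and 2.67 FPKM with KLF11 siRNA against 4.10 and 4.54 FPKM with control siRNA (adjusted p = 0.067).

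In sterol transport, storage and uptake, LRP8, a receptor for apolipoprotein E and reelin, was at 49.9 and 62.3 FPKM with KLF11 siRNA against 21.0 and 18.9 FPKM with control siRNA (2.81-fold, adjusted p = 0.00403). TMEM97, a sterol-regulated membrane protein that binds NPC1, rose 1.74-fold (adjusted p = 0.0262), while SCARB2 of the lysosomal membrane was 0.586-fold (adjusted p = 0.00806) and the sterol carrier OSBPL2 0.691-fold (adjusted p = 0.0309). Among the lipogenic genes, the desaturases SCD and FADS2 rose 1.36-fold (adjusted p = 0.0131) and 1.37-fold (adjusted p = 0.0151) and the acyl-CoA synthetase ACSL3 1.66-fold (adjusted p = 0.0151). MID1IP1, which promotes assembly of acetyl-CoA carboxylase, was at 82.4 and 81.1 FPKM with KLF11 siRNA against 160.4 and 152 FPKM with control siRNA (0.524-fold, adjusted p = 0.00347). The other falls among the lipogenic genes were LPIN1 at 0.50-fold (adjusted p = 0.0191) and PCYT2 at 0.675-fold (adjusted p = 0.0192). Of the 15 lipogenic genes 9 did not pass, among them FASN (0.963-fold, adjusted p = 0.709) and ACLY (1.07-fold, adjusted p = 0.421).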

How the data were processed

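Polyadenylated RNA of 4 libraries, 2 per group, was sequenced by the authors. Their deposited values are FPKM for 57905 Ensembl identifiers, 1 column per library, with 0 columns left unmatched to a sample. The tools RSEM 1.3.1 and Trim Galore 0.5.0 and the build hg19 (GRCh37) are named per the submitters' processing notes. For the aligner, annotation release, strand setting and filters, nothing is stated in the sources used here. FPKM keeps no depth, and abundant genes that change can shift all others. RSEM shares out reads among matching transcripts, and reads of overlapping genes cannot be told apart without strand.

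The groups come from the sample titles. The test was limma 3.58.1 (R 4.3.3, eBayes with a trend), run for mean FPKM values of 1 or more on log2(FPKM + 1), KLF11 siRNA minus control siRNA, no block, Benjamini-Hochberg over 15320 genes, threshold 0.05. This scale understates changes of low genes. Folds are ratios of mean FPKM, and values are given in replicate order. The libraries of a group correlated at 0.976 (KLF11 siRNA) and 0.982 (control siRNA) over genes, which are not replicates. Identical values within a group made up no more than 0.548% of genes, and no libraries were merged. On simulated data the fit gave false calls at a rate above the nominal threshold. The simulation changed far fewer genes than were called in the data, so the rate among these calls is unknown. The members, lists and motifs were chosen with earlier results of these data known. Genes named are the 28, KLF11, cell markers and up to 4 genes with the smallest p in each of the 5 neighbouring lists. LBR, the overlapping genes and a few further isoprenoid and lipogenic genes were chosen after values were seen. Some genes the rule selects are left out of the text. Of 77 genes in the neighbouring lists 76 were found in the table, and 69 were tested. Promoter windows are RefSeq's, build GRCh38.p14, not the build of the FPKM table. Alternatives were pseudocounts of 0.1 and 5, no filter, a filter of mean FPKM 5, TPM and median-of-ratios scaling, eBayes without a trend, the replicate block and each library left out. Figures were drawn with matplotlib 3.10.9.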

Additional observations from a re-analysis of the deposited data

How the results depend on the processing

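Across 10 alternatives that kept both control libraries, 14 of the 21 calls among the 28 genes held throughout. The calls of ACAT2, FDPS, MVK, MVD, HSD17B7, DHCR7 and NR1H2 were lost in 1 or more of them. With no filter on low values, 11 of the 28 genes were called higher, as were 3 of the neighbouring pathway genes and 887 of all tested genes, while 6 of the neighbouring pathway genes and 1251 of all tested genes were called lower. That fit covered 34232 genes. With each library left out in turn, the 28 genes gave 0 to 16 higher and 0 to 4 lower calls, the neighbouring pathway genes 0 to 10 higher and 0 to 17 lower, and all tested genes 0 to 2291 higher and 0 to 3813 lower. The counts of 0 came without control siRNA replicate 1 or 2, where 4461 and 4793 genes had an unadjusted p under 0.05 in limma. There the lone control library is assumed to vary like the KLF11 siRNA pair. Of 336 refitted log2 changes of the 28 genes 1 changed sign, that of PMVK, which was 0.02 with median-of-ratios scaling. The replicate block gave 15 higher and 3 lower of the 28 genes, losing MVD, HSD17B7 and NR1H2. The labels do not pair replicate numbers, and deviations of same-numbered libraries correlated at -0.0711 over 15320 genes. With FPKM only, the effect of depth on low genes such as MYLIP and INSIG2 cannot be measured.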

Other observations

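Several of the 28 genes share exon sequence with a neighbour on the opposite strand in GENCODE release 29, and some of these neighbours changed as well. MMAB, which overlaps MVK and encodes a cobalamin adenosyltransferase, was at 24.04 and 20.2 FPKM with KLF11 siRNA against 13.6 and 14.1 FPKM with control siRNA (1.59-fold, limma adjusted p = 0.0168). ISCA2, an iron-sulfur cluster gene that overlaps NPC2, was at 20.4 and 22.7 FPKM with KLF11 siRNA against 31.7 and 33.7 FPKM with control siRNA (0.658-fold, adjusted p = 0.0133). RAI1, which overlaps SREBF1, was at 5.17 and 8.77 FPKM with KLF11 siRNA against 13.6 and 11.9 FPKM with control siRNA (adjusted p = 0.0492). TCP1, a chaperonin subunit gene that overlaps ACAT2, was at 197 and 161 FPKM with KLF11 siRNA against 149 and 147 FPKM with control siRNA (adjusted p = 0.133). Without the strand setting, reads from the shared exons cannot be told apart, and their part in the values of MVK, NPC2, SREBF1 and ACAT2 was not tested. VPS51, which overlaps TM7SF2 on the same strand, was at 48.0 and 46.0 FPKM with KLF11 siRNA against 47.1 and 46.8 FPKM with control siRNA (log2 change near 0, adjusted p = 0.998). Pseudogenes named after FDPS, CYP51A1 and HSD17B7 were at most at 0.61 FPKM in any library.

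The order of levels among the 28 genes differed between the groups. With KLF11 siRNA the highest means were those of FDFT1 (316 FPKM), HMGCS1 (245 FPKM) and FDPS (240.0 FPKM), and with control siRNA those of NPC2 (342 FPKM), FDFT1 (194 FPKM) and FDPS (166 FPKM). MYLIP and INSIG2 were lowest in both groups, at means of 3.39 and 4.77 FPKM with KLF11 siRNA and 6.95 and 7.05 FPKM with control siRNA.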
